A study of Homo sapiens with 4 samples.

Results

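The genes described are 10 genes grouped as feedback inhibitors of RAS-ERK signalling: the MAP kinase phosphatases DUSP1, DUSP2, DUSP4, DUSP5, DUSP6 and DUSP10, the Sprouty genes SPRY2 and SPRY4, and the Sprouty-related genes SPRED1 and SPRED2. DUSP10 is in the group although it acts mainly on the stress kinases JNK and p38. The 10 genes were taken by name as a functional group, with earlier results of these data known. Shares of these genes, and of the pathway lists below, are set beside those of all genes as a description. On the Affymetrix HG-U133 Plus 2.0 array they were read by 21 probe sets that the platform annotation assigns to a single one of these symbols, out of 54675 probe sets and 19775 named genes in all. Each gene was represented by its brightest probe set, and the other probe sets are given beside it. Of the 10 genes, 9 had a brightest probe set past the filter on dim signals (a mean of about 64.6 over the arrays) and were tested; DUSP10 did not and is given by its values.

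The cells were MIA PaCa-2, an established line from a human pancreatic carcinoma. One population had been transduced with a lentivirus that expresses FLAG-tagged, full-length ING3 from a vector with a CMV/TO promoter, and the control population with a GFP lentivirus. Both were selected as stable cells and harvested in serum-containing medium before full confluence. Each group had 2 arrays, a and b, which are technical duplicates per the series' design text, so each p-value sets a difference against the spread between duplicates of 1 cell population per group and says nothing about the spread between cultures. The number of clones behind each population is not given in the sources used here.

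ERK is switched on by a relay from receptor tyrosine kinases through RAS, RAF and MEK, and active ERK induces genes that switch the pathway off again. The inducible DUSPs remove the activating phosphates from MAP kinases: DUSP6 acts on ERK in the cytoplasm, DUSP5 on ERK in the nucleus, DUSP1, DUSP2 and DUSP4 on several MAP kinases in the nucleus, and DUSP10 mainly on the stress kinases JNK and p38. Sprouty proteins restrain signalling between the receptor and RAF, and SPRED proteins bring the RAS inactivator neurofibromin to the membrane. Transcript levels of DUSP6, SPRY2, SPRY4 and their relatives are widely read as a measure of ERK output in tumours that depend on RAS signalling, pancreatic carcinoma among them.

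Signal here is the MAS5 intensity of a probe set, and log2 differences are ING3 minus control on the log2(signal + 1) scale. Signals of different probe sets are not compared with each other. ING3 itself had signals of 338 and 373 on control arrays a and b and of 521 and 541 on ING3 arrays a and b (log2 difference 0.58, limma adjusted p = 0.071), so the targeted transcript was higher on both ING3 arrays but was not called. The other ING3 probe sets, which are dimmer, had log2 differences of -0.19, 0.018 and 0.50. Of 5 markers of pancreatic carcinoma epithelium, KRT8 and KRT19 rose among the 4 tested (log2 differences 0.32 and 0.52, limma adjusted p = 0.033 and 0.0078). KRT18 had a log2 difference of 0.13 and KRT7 one of -0.16 with overlapping groups, and EPCAM was under the filter with overlapping signals of 15.2 to 37.9 (log2 difference -0.61). The summed signal of the 5 markers, carried by the bright keratins KRT18, KRT8 and KRT19, was 40033 to 40145 in the control duplicates and 45168 to 48238 in the ING3 duplicates. Of 4 tested fibroblast markers 0 had a higher mean with ING3 and limma called 0 (2 lower at an unadjusted p under 0.05), and the summed signal of the 6 markers was 6261 to 6479 in the control duplicates and 5385 to 5754 in the ING3 duplicates, with COL1A2 and COL3A1 the brightest (log2 differences -0.25 and -0.036). LUM, under the filter, was higher, at 7.30 and 5.10 in the control duplicates and 48.6 and 28.5 in the ING3 duplicates (log2 difference 2.43). PDGFRB, also under the filter, had overlapping groups (log2 difference 0.089). Of the leukocyte markers 1 was tested (CD3E, log2 difference -0.22), with a summed signal of 93.1 to 224 in the control duplicates and 154 to 176 in the ING3 duplicates, and PTPRC lay between 9.38 and 15.97. Of the endothelial markers CDH5 and PECAM1 were tested (log2 differences -0.025 and -0.22), with 0 of these leukocyte and endothelial markers under an unadjusted p of 0.05, with sums of 424 to 479 and 393 to 467, and VWF lay between 8.14 and 17.03. As a measure of RNA quality, the 3' probe set of ACTB divided by its 5' probe set gave 2.58 and 1.80 on control arrays a and b and 2.05 and 2.03 in the ING3 duplicates, while the same ratio for GAPDH lay between 0.90 and 0.93 on all 4 arrays; the part of RNA quality and of the keratin difference in the results was not tested.

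Of the 9 tested genes, DUSP5 and DUSP1 rose in the ING3 cells and 0 fell; at an unadjusted limma p under 0.05, 5 were higher and 0 lower. Without control array a limma called 0 of the 9 (2 at an unadjusted p under 0.05) and without control array b also 0 (4 at an unadjusted p under 0.05), when 2 genes in all were called each time. In the fit over all genes, 1.03% of the 12190 tested genes rose, 0.476% fell and 1.50% were called in either direction. The mean was higher with ING3 for 8 of the 9 genes, against 48.3% of all tested genes, and both ING3 arrays lay above both control arrays for 6 of the 9 (DUSP1, DUSP4, DUSP5, DUSP6, SPRY2 and SPRY4), against 24.3% of all tested genes. Both lay below for 0 of the 9, against 24.9%. The median log2 difference of the 9 genes was 0.25, with a range from -0.0013 to 0.62, and that of all tested genes was -0.0074. The differences were small: the largest was 1.54-fold. The difference between the groups was larger than the gap between the duplicates of either group for 5 of the 9 genes, against 36.9% of all tested genes.

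**Figure D1:**
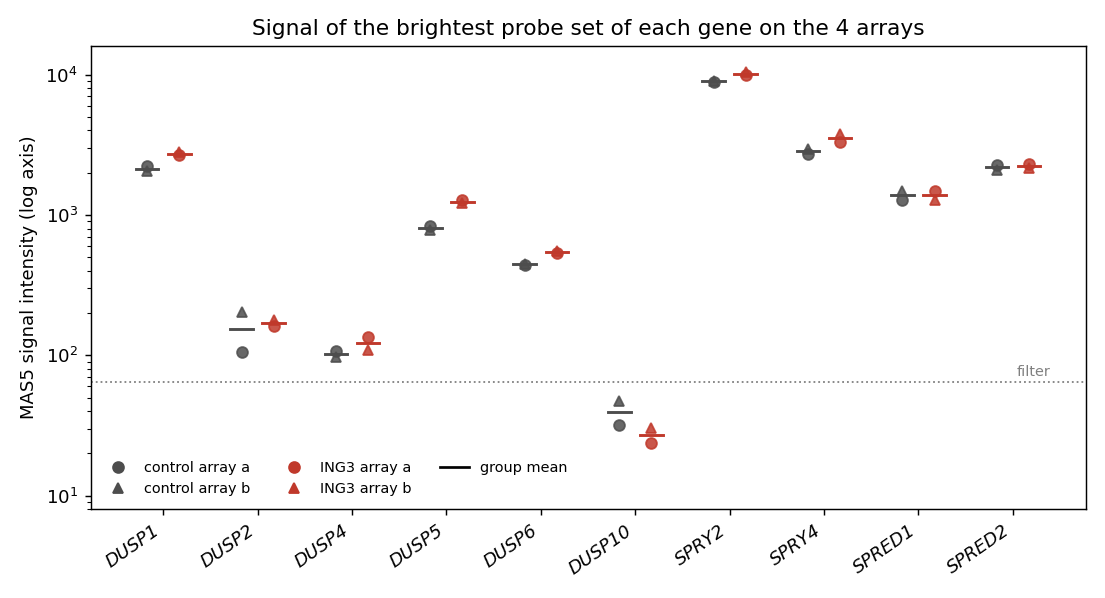
Signal of the brightest probe set of each of the 10 genes on the 4 arrays, on a log axis; circles are array a, triangles array b, short lines group means and the dotted line the filter at a signal of 64.6. Both ING3 arrays (red) lie above both control arrays (grey) for DUSP1, DUSP4, DUSP5, DUSP6, SPRY2 and SPRY4, the groups overlap for DUSP2, SPRED1 and SPRED2, and DUSP10 lies under the filter.

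DUSP5, the nuclear phosphatase that acts on ERK alone among the MAP kinases, had the largest difference of the 9 genes. Its single probe set (209457_at) read 837 and 783 on control arrays a and b and 1280 and 1210 on ING3 arrays a and b. The duplicates lay close together in both groups and the groups were far apart. The mean rose 1.54-fold, from 810 ± 37.8 to 1245 ± 49.7 (SD, n = 2; log2 difference 0.62, SE 0.093, 95% interval 0.41 to 0.83, limma adjusted p = 0.018). The pseudogene DUSP5P1, a copy of DUSP5 with a probe set of its own, had means of 517 and 541 (log2 difference 0.056, SE 0.14); it was named after its values were seen. The direction of DUSP5 was kept under all 11 alternative settings, with log2 differences of 0.57 to 0.67. The call was lost without control array a (adjusted p = 0.19), without control array b (adjusted p = 0.20) and with a variance model without an intensity trend (adjusted p = 0.24).

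DUSP1, an inducible phosphatase of ERK, p38 and JNK and itself an immediate early gene, rose on its brightest probe set (201041_s_at). That probe set read 2214 and 2067 on control arrays a and b and 2692 and 2787 on ING3 arrays a and b, so the groups did not overlap. The mean rose 1.28-fold, from 2141 ± 104 to 2740 ± 67.7 (SD, n = 2; log2 difference 0.36, SE 0.071, 95% interval 0.20 to 0.52, limma adjusted p = 0.047). The other probe sets of DUSP1 went the other way. The second (226578_s_at) read 206 and 124 in the control duplicates and 129 and 134 in the ING3 duplicates, a log2 difference of -0.28 (SE 0.28) in which the ING3 values lay within the control values. The third (201044_x_at), under the filter, read 28.7 and 70.1 in the control duplicates and 17.9 and 40.5 in the ING3 duplicates, with overlapping groups. The DUSP1 call was close to the threshold and held under 3 of the 11 alternative settings, with adjusted p-values of 0.020 to 0.66 over all of them. It was lost without control array a (adjusted p = 0.24), without control array b (0.31) and without ING3 array b (0.089), without a filter (0.099), with quantile (0.062) or cyclic loess (0.063) normalization, without an intensity trend (0.28) and when the probe sets rather than the genes were tested (0.078).

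**Figure D2:**
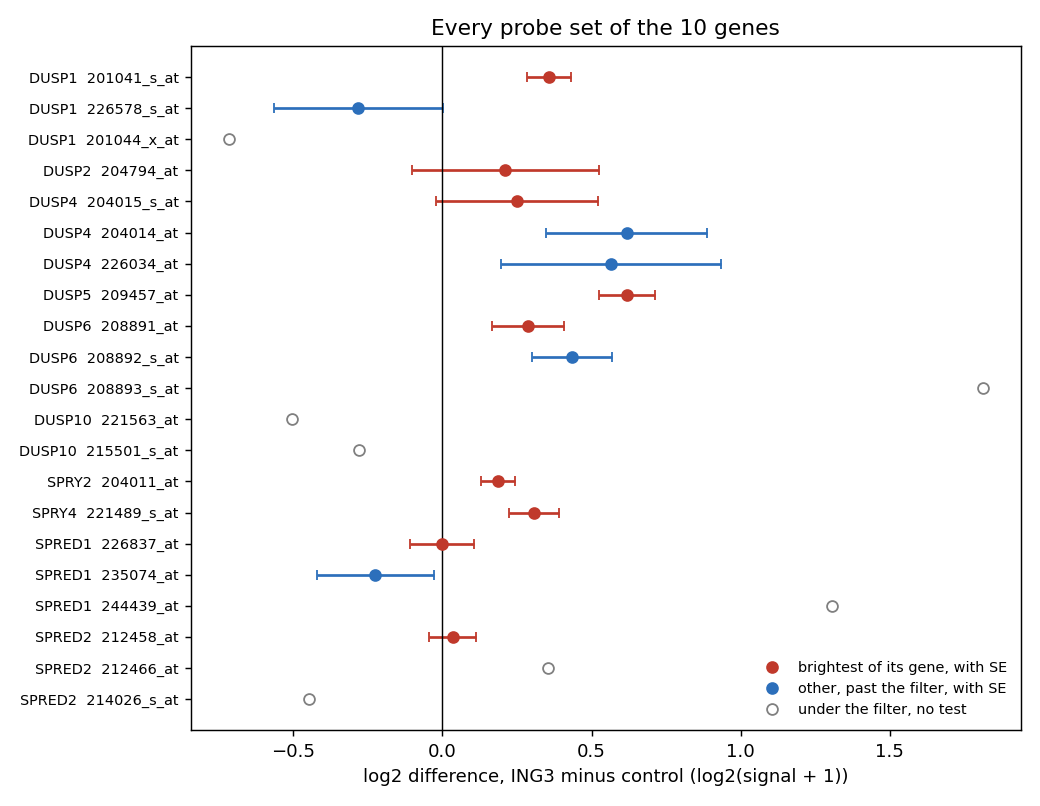
Log2 difference, ING3 minus control, of all 21 probe sets of the 10 genes; bars are the moderated SE of the limma fit over probe sets, and open circles are the 7 probe sets under the filter, which were not tested. The dimmer probe sets of DUSP1 lie on the other side of 0 from its brightest, whereas the probe sets of DUSP4 and of DUSP6 all lie above 0.

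Bases just upstream of a start are shown for DUSP1, the called gene for which the RefSeq promoter table (GRCh38.p14) has an entry. They are also shown for SPRY2, whose arrays did not overlap either and whose first start holds a motif match. The listed starts of DUSP6 and SPRY4, whose arrays also did not overlap, held no motif match. Nor did the other listed starts of SPRY2. DUSP1 is shown for chr5:172771196-172771445 and SPRY2, at the first of its 3 listed starts, for chr13:80341127-80341376, both on the minus strand and written 5' to 3' up to the base before the transcription start; capitals mark motif matches.
DUSP1: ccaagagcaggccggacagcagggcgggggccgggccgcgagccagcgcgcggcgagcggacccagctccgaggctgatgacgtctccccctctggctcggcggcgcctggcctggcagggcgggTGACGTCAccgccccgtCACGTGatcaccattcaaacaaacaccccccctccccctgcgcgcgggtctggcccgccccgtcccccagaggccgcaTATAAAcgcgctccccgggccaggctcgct
SPRY2: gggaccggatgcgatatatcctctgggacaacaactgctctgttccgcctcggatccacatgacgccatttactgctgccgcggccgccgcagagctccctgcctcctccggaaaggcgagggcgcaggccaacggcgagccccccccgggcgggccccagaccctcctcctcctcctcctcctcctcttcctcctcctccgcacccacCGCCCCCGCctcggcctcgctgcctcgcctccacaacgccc
In DUSP1 the capitals are a cAMP response element (CRE, TGACGTCA, 125 bases before the start), an E-box (CACGTG, 108 bases before it) and a TATA box (TATAAA, 30 bases before it), 3 matches that do not overlap. In SPRY2 they are an EGR site (GCGGGGGCG, here read on the opposite strand, 41 bases before the start). The table had 12 promoters for 8 of the 10 genes. In windows of 250 bases the CRE was in 1 of the 12 and in 1.65% of all 35116 promoters, the E-box in 2 of 12 and 6.34%, the TATA box (searched on the gene's strand alone) in 2 of 12 and 6.8%, and the EGR site in 2 of 12 (DUSP2 and SPRY2) and 4.72%. The AP-1 site (TGANTCA), the ETS site (CCGGAAGT) and the CArG box were in 0 of the 12, and in 6.57%, 3.42% and 1.16% of all promoters. All but the TATA box were searched on both strands. These are letter matches in short windows and are given as a description.

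DUSP6, the cytoplasmic ERK phosphatase most often used as a readout of ERK activity, had 3 probe sets, and on each of them both ING3 arrays lay above both control arrays. The brightest (208891_at) read 438 and 450 on control arrays a and b and 532 and 552 on ING3 arrays a and b. Its means were 444 ± 8.71 and 542 ± 14.4 (SD, n = 2), a log2 difference of 0.29 (SE 0.12, 95% interval 0.013 to 0.56) that was not called (limma adjusted p = 0.26). The second (208892_s_at) read 381 and 351 in the control duplicates and 473 and 517 in the ING3 duplicates, a log2 difference of 0.44 (SE 0.13, adjusted p over probe sets = 0.19). The third (208893_s_at) was dim, at 11.8 and 17.4 in the control duplicates and 40.3 and 69.0 in the ING3 duplicates, and lay under the filter on average. The probe sets of DUSP6 thus shared their direction.

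DUSP4, a nuclear phosphatase closely related to DUSP1, was dim on all 3 of its probe sets, and both ING3 arrays were above both control arrays on each. The brightest (204015_s_at) read 107 and 96.7 on control arrays a and b and 135 and 109 on ING3 arrays a and b, so that the lower ING3 value nearly touched the higher control value. Its log2 difference was 0.25 (SE 0.29, 95% interval -0.39 to 0.89, limma adjusted p = 0.70), and leaving out 1 array moved it from 0.099 (without ING3 array a) to 0.40 (without ING3 array b); quantile and cyclic loess normalization gave 0.40 and 0.39 for DUSP4, not called. The second (204014_at) showed a wider separation, with 89.0 and 81.4 in the control duplicates and 134 and 128 in the ING3 duplicates (log2 difference 0.62, SE 0.27, adjusted p over probe sets = 0.31). The third (226034_at) read 60.4 and 75.7 in the control duplicates and 76.4 and 132 in the ING3 duplicates, where ING3 array a was level with control array b and ING3 array b stood apart. None of these passed the test at this brightness, where the SE was 0.27 to 0.37.

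DUSP2, a phosphatase first described in activated lymphocytes, varied more between the control duplicates than between the groups. Its probe set (204794_at) read 105 and 205 on control arrays a and b and 162 and 178 on ING3 arrays a and b, so both ING3 values lay between the control values. The gap between the control duplicates, 0.96 on the log2 scale, was larger than the log2 difference of 0.21 between the groups (SE 0.32, limma adjusted p = 0.78). Without control array a the log2 difference turned to -0.27, and neither value was called.

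DUSP10, which acts on JNK and p38, was near background on both of its probe sets. The brighter (221563_at) read 31.8 and 46.9 on control arrays a and b and 23.8 and 30.5 on ING3 arrays a and b, with both ING3 values below both control values. The other (215501_s_at) read 14.6 and 43.6 in the control duplicates and 13.7 and 31.0 in the ING3 duplicates, with overlapping groups. The array gave no tested value for DUSP10.

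The Sprouty genes had bright probe sets and small differences. SPRY2 (204011_at) read 8824 and 9045 on control arrays a and b and 9924 and 10417 on ING3 arrays a and b. All 4 values lay within a narrow range, and the groups did not overlap. The log2 difference was 0.19 (SE 0.056, 95% interval 0.060 to 0.31), which was not called (limma adjusted p = 0.13). Quantile and cyclic loess normalization gave smaller SPRY2 differences of 0.14 and 0.13, not called. SPRY4 (221489_s_at) read 2725 and 2954 on control arrays a and b and 3292 and 3750 on ING3 arrays a and b. ING3 array b was the highest, and ING3 array a was nearer to control array b than to it. The log2 difference was 0.31 (SE 0.081, 95% interval 0.13 to 0.49), which was not called either (limma adjusted p = 0.096). SPRY4 was called when ING3 array a was left out (adjusted p = 0.032) and with the letter of the array as a block (adjusted p = 0.029). The family member SPRY1 read 2993 on both control arrays and 2961 and 3020 in the ING3 duplicates, a log2 difference of -0.0013 with a 95% interval from -0.14 to 0.14. Whether SPRY1 and SPRY4 differ in their response was not tested. SPRY3 was under the filter, with signals of 26.6 to 64.0.

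The SPRED genes were level between the groups on their brightest probe sets. SPRED1 (226837_at) read 1283 and 1473 on control arrays a and b and 1481 and 1274 on ING3 arrays a and b. The highest and the lowest value were both from ING3 cells, and the group means were 1378 and 1377. The log2 difference was -0.0013 (SE 0.10, 95% interval -0.24 to 0.23), an interval that holds changes of either sign. Its second probe set (235074_at) read 195 and 217 in the control duplicates and 178 and 174 in the ING3 duplicates (log2 difference -0.23, SE 0.20), and the third (244439_at), under the filter, read 15.99 and 27.3 in the control duplicates and 59.4 and 47.8 in the ING3 duplicates. The 3 probe sets of SPRED1 thus gave a level, a lower and a higher value. SPRED2 (212458_at) read 2275 and 2094 on control arrays a and b and 2304 and 2168 on ING3 arrays a and b, with overlapping groups. Its log2 difference was 0.034 (SE 0.076, 95% interval -0.14 to 0.21). The other SPRED2 probe sets were dim, with signals of 19.4 to 31.6 and of 1.24 to 3.40. SPRED3, the third member of the family, had means of 320 and 344 with overlapping groups (log2 difference 0.11, SE 0.16).

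The 14 probe sets past the filter came from the 9 tested genes. Taken singly, both ING3 arrays lay above both control arrays for 9, below them for 1 (SPRED1) and overlapped for 4. Of all 22559 tested probe sets, 20.9% had ING3 above. DUSP4 and DUSP6 each gave more than 1 of the probe sets with ING3 above, so these are not separate genes. In the fit over probe sets 1 of the 14 was called, that of DUSP5 (limma adjusted p = 0.034), against 0.350% of all probe sets that rose.

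Of 9 other dual-specificity phosphatases and related genes, all tested, limma called 0 (1 at an unadjusted p under 0.05), and for 7 the mean was higher with ING3; their median log2 difference was 0.11, and both ING3 arrays lay above both control arrays for 3, a share near the 24.3% of all tested genes; 48.3% of all tested genes had a higher mean. The highest values were 0.33 for DUSP9 (SE 0.29), 0.28 for DUSP18 (SE 0.24) and 0.19 for DUSP16 (SE 0.14), a phosphatase of JNK and p38. DUSP7, a cytoplasmic ERK phosphatase related to DUSP6, read 3313 and 3348 in the control duplicates and 3385 and 3376 in the ING3 duplicates, a log2 difference of 0.021 (SE 0.062, 95% interval -0.12 to 0.16). The remaining values were 0.16 for STYXL1, 0.11 for DUSP22, 0.031 for DUSP3, -0.10 for DUSP14 and -0.23 for DUSP8.

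In the lists of ligands, receptors and adaptors, the RAS-RAF-MEK-ERK core, and JNK and p38 kinases, the measured genes went in both directions. Of 9 tested ligand genes limma called 0 (2 higher and 3 lower at an unadjusted p under 0.05), with a median log2 difference of -0.17; EREG, which encodes the EGF receptor ligand epiregulin, and VEGFA were the brightest, at 0.22 (SE 0.056) and 0.031 (SE 0.058). Of 20 tested receptor and adaptor genes the receptor AXL rose 1.35-fold and the adaptor SHC3 fell 1.63-fold (log2 differences 0.44 and -0.71, limma adjusted p = 0.047 and 0.018), with a median of -0.032. Of 14 tested genes of the RAS-RAF-MEK-ERK core and its scaffolds limma called 0 (1 lower at an unadjusted p under 0.05), with a median of 0.068 and with YWHAB and YWHAZ, scaffold proteins of the 14-3-3 family, at 0.029 and 0.11. Of the JNK and p38 kinases and their activators limma called 0 of 13 (1 higher at an unadjusted p under 0.05), with a median of -0.0044, and MAPK9 and MAP3K7, the brightest, at -0.0031 and -0.029. Of the 136 genes in all these lists, 13 were not analysed here.

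Downstream of ERK, 4 of 27 tested output genes rose and 0 fell, with a median log2 difference of 0.20 and with no overlap, ING3 above, for 21 of the 27; over all tested genes 1.03% rose and 24.3% had no overlap with ING3 above. Those that rose were the transcription factors FOSL1 (0.73), JUNB (0.71) and EGR1 (0.63) and the urokinase receptor PLAUR (0.50), and the limma adjusted p-values were 0.0094, 0.049, 0.0079 and 0.025. Of 16 tested genes for other negative regulators ERRFI1, a feedback inhibitor of the EGF receptor that growth factors induce, rose: it read 22208 and 21916 on control arrays a and b and 27654 and 27886 on ING3 arrays a and b, a 1.26-fold difference (log2 difference 0.33, SE 0.051, limma adjusted p = 0.019). The median of that list was 0.056, and 9 of its 16 genes had a higher mean. Over the 110 tested genes of these lists together, 6 rose and 1 fell, and the median was 0.078; with control array a left out limma called 0 of them (22 at an unadjusted p under 0.05), as it did with b left out (24).

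**Figure D3:**
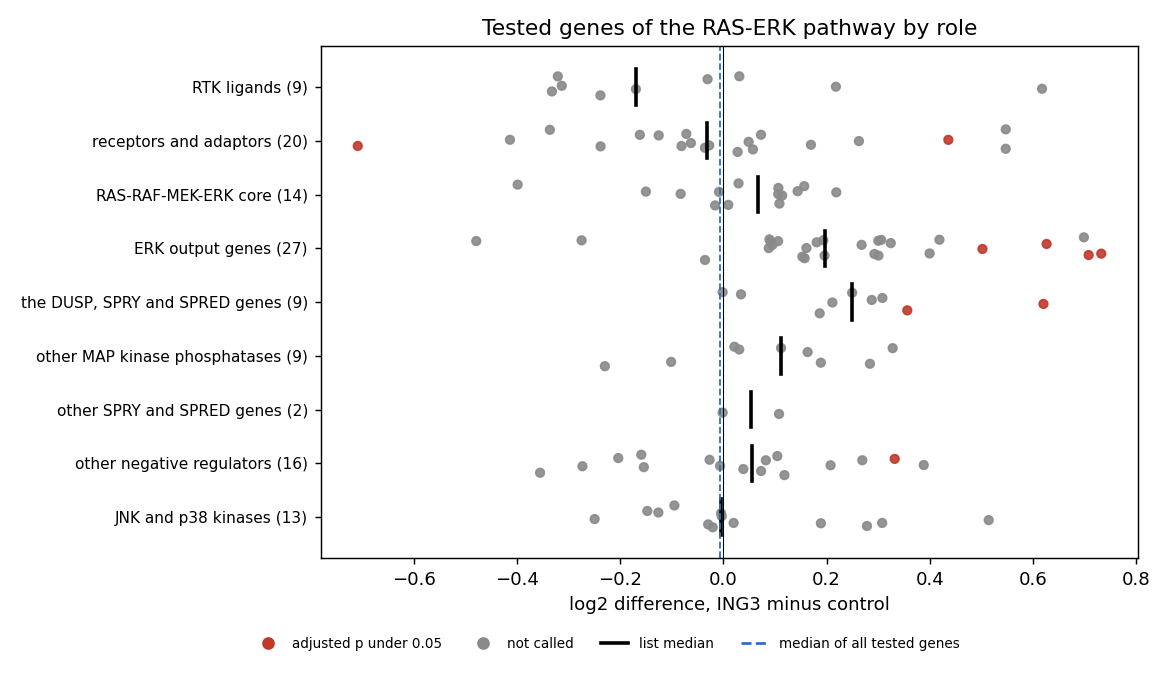
Log2 difference, ING3 minus control, of every tested gene of the RAS-ERK pathway by role, with the number of genes in parentheses; black bars are list medians, red points are genes with a limma adjusted p under 0.05, and the dashed line is the median of all tested genes. The medians of the ERK output genes (0.20) and of the DUSP, SPRY and SPRED genes (0.25) lie farther above 0 than those of the receptor, core and stress kinase lists.

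**Figure D4:**
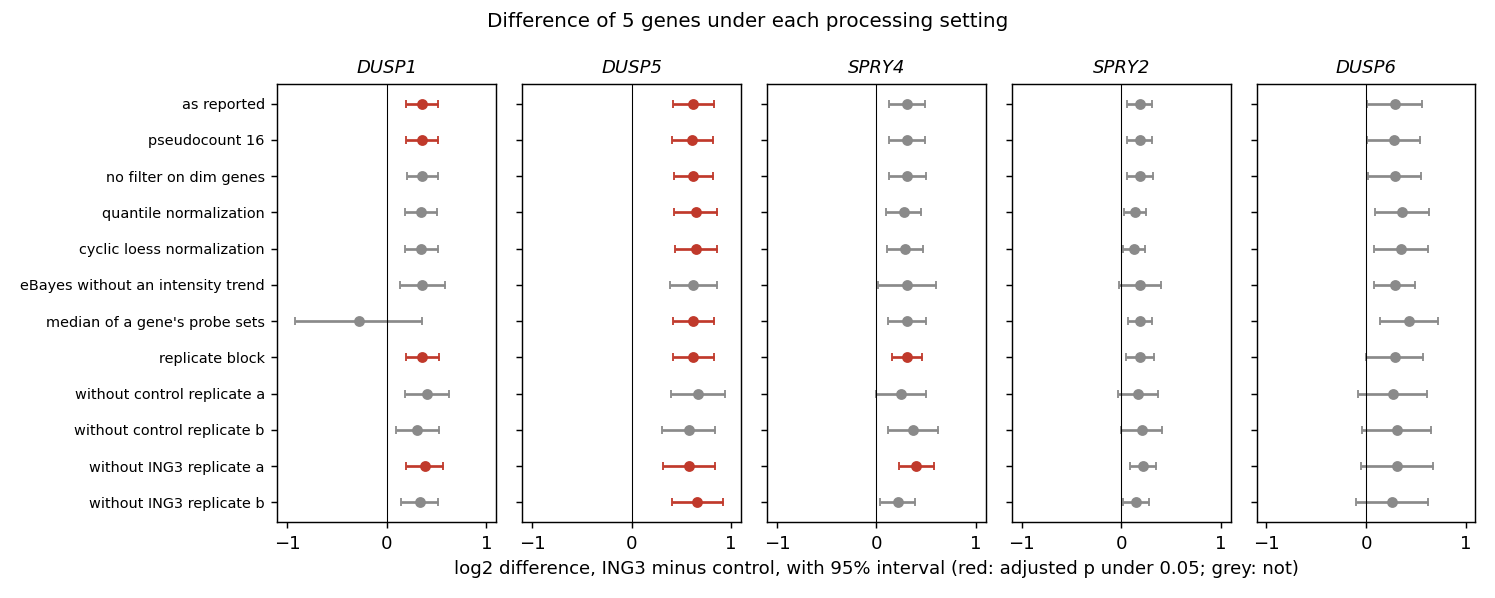
Log2 difference with its 95% interval for DUSP1, DUSP5, SPRY4, SPRY2 and DUSP6 as reported and under 11 alternative settings; red marks an adjusted p under 0.05. DUSP5 was called under 8 of the 11 alternatives and DUSP1 under 3, SPRY4 under 2, and SPRY2 and DUSP6 under 0, while the values stayed above 0 for all but DUSP1 with the median of its probe sets.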

How the data were processed

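The deposited table holds linear signal intensity for 54675 probe sets on 4 arrays; the submitters' processing notes name MAS5 and Affymetrix Expression Console as the authors' tools, with versions not given in the sources used here. Because MAS5 subtracts mismatch signal, dim values are noisy, and its scaling uses a single factor for an array; no detection calls were in the table, arrays have no read depth, and their number limits the precision. Probe sets were named from GEO's platform annotation (41091 with 1 symbol, 1801 with several, 11721 unnamed), and 62 control probe sets were left out. Each gene was read by its brightest probe set (mean of log2(signal + 1) over the arrays), and the 12190 genes whose mean reached the median of all probe sets were tested with limma 3.58.1 in R 4.3.3 (lmFit, eBayes with an intensity trend, two-sided, Benjamini-Hochberg adjustment over all tested genes, called under 0.05; no covariates). Probe sets were tested in a second fit of the same kind over 22559 probe sets. The code was tested on simulated data in which 100 genes changed 1.5-fold and 100 changed 2-fold. It called 50% of the former and 78% of the latter, with 3 false calls among 131. "Rose" and "fell" mean called. The fit has 2 residual degrees of freedom per gene and borrows 7.35 from the others. The 10 genes and the pathway lists were chosen with earlier results of these data known, so no set test and no adjustment over a list was made. Genes named were ING3, the 10 genes, all tested genes of the phosphatase and Sprouty lists, up to 4 called genes of each other list or, where 0 were called, the 2 brightest. Further genes (other cell type markers, DUSP5P1, IL17RD and those under other observations) were chosen after their values were seen. Alternatives were another pseudocount (16), no filter, quantile and cyclic loess normalization, no intensity trend, the median of a gene's probe sets, the letter of the array as a block, and leaving out each array. Promoter bases are from RefSeq, GRCh38.p14, without the 50 bases after the start.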

Additional observations from a re-analysis of the deposited data

How the results depend on the processing

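As reported, 183 genes, 2 of the 10 feedback genes (DUSP1 and DUSP5), 7 pathway genes and 1 probe set of the feedback genes were called. With no filter on dim genes these counts were 54, 1, 3 and 0 (7 probe sets at an unadjusted p under 0.05), and DUSP10, tested then, was not called; with quantile normalization 119 genes and 1 feedback gene, and with cyclic loess 1 feedback gene. Without an intensity trend limma called 0 in each (at an unadjusted p under 0.05: 1686 genes, 4 feedback genes, 31 pathway genes and 5 probe sets). With the median of a gene's probe sets 42 genes, 1 feedback gene and 2 pathway genes were called, and DUSP1 turned to -0.28 because that median is its second probe set; SPRED2 was under the filter there and has no value. Leaving out 1 array gave 2 to 305 genes, 0 to 3 feedback genes, 0 to 9 pathway genes and 0 probe sets (3 to 5 at an unadjusted p under 0.05); the lone array is assumed to vary like the other group. The labels do not say whether the letters a and b pair the arrays across the groups. The correlation of deviations across genes was 0.029, which cannot settle this. With the letters as a replicate block 442 genes, 14 pathway genes and 3 probe sets were called, with DUSP1, DUSP5 and SPRY4 among the genes. Leaving out 1 array gave DUSP2 values of -0.27 (without control array a) to 0.69. SPRED1, at -0.0013 as reported, was at 0.0092 with quantile and 0.012 with cyclic loess normalization, and leaving out 1 array gave SPRED1 values of -0.11 to 0.11 and SPRED2 values of -0.025 to 0.094; the cause was not tested. Of 98 values of single feedback genes under the alternatives, 78 kept their direction and call, 10 lost the call, 2 gained it and 8 changed sign. A value that was uncalled and stayed so with the same sign counts as kept, and 7 of the 9 genes were not called as reported. Dim probe sets (DUSP2, DUSP4, DUSP10) limit what can be seen.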

Other observations

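SPRY4-IT1 is a long noncoding RNA transcribed from within the SPRY4 gene, and its signal went the other way from that of SPRY4. Its brighter probe set (1566968_at) read 1638 and 1879 on control arrays a and b and 1408 and 1367 on ING3 arrays a and b, so both ING3 values were below both control values. The log2 difference was -0.34 (SE 0.089, 95% interval -0.54 to -0.14, limma adjusted p = 0.096), against 0.31 for SPRY4 with the same adjusted p, and neither was called. Its second probe set (1566967_at) read 155 and 133 in the control duplicates and 115 and 129 in the ING3 duplicates, again with both ING3 values lower (log2 difference -0.24, SE 0.25). The difference between the transcripts was not tested.

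Among the ligands that feed the pathway, HBEGF, an EGF receptor ligand that ERK signalling induces, read 646 and 628 on control arrays a and b and 1134 and 843 on ING3 arrays a and b. Both ING3 arrays were above both control arrays, with the ING3 duplicates far apart, and the log2 difference of 0.62 (SE 0.14) was as large as that of DUSP5 but was not called (limma adjusted p = 0.068). At an unadjusted limma p under 0.05, 2 ligand genes were higher, HBEGF and EREG, and 3 were lower. Those 3 were FGF2, PDGFA and BTC (log2 differences -0.33, -0.32 and -0.24), each with both ING3 arrays below both control arrays and not called. The atypical dual-specificity phosphatases outside the lists had log2 differences of 0.022 for DUSP11, 0.16 for DUSP12, -0.31 for DUSP13B and 0.030 for DUSP28, and 0 of these 4 genes were called.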
